A study of Homo sapiens with 8 samples.

Results

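The human genome was cut into fixed windows of 500 kb, and 367 of 5747 windows (6.39%) held no shared CTCF site. These windows were chosen by measured values: a window was counted when no summit of a replicate 1 CTCF peak that overlapped a replicate 2 peak by at least 1 bp lay inside it. A further 303 of 6050 complete windows on chromosomes 1 to 22 and X had been set aside because more than 10% of their bases were unknown in the hg38 assembly. The peaks came from chromatin immunoprecipitation followed by sequencing (ChIP-seq) in U-2 OS, a human osteosarcoma cell line. CTCF was precipitated in 2 replicates from clone C32, a single clone with FLAG-Halo-CTCF knocked in at the endogenous gene. Sp1 was precipitated with rabbit antibody 1 and with rabbit antibody 2, and normal rabbit IgG served as a control, all in a line that carries an endogenous V5-Halo-SP1 knock-in and that the sample titles call parental. Every group was fixed with 1% formaldehyde for 6 min. CTCF and Sp1 were therefore mapped in different engineered lines, and each Sp1 antibody was used in 1 library.

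CTCF is a zinc finger protein that binds a long DNA motif, halts the cohesin complex as it extrudes chromatin loops, and so marks the borders of many chromosome domains. Sp1 is a zinc finger transcription factor that binds GC boxes, short G-rich elements found in many CpG island promoters. Human centromeres are built of alpha satellite DNA, a head-to-tail repeat of short monomers that the assembly represents by modelled sequence.

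The peak lists held 42765 CTCF peaks in replicate 1, 36082 in replicate 2, 8706 Sp1 peaks with antibody 1, 5973 with antibody 2 and 106 with IgG. Of the replicate 1 CTCF peaks, 34125 overlapped a replicate 2 peak, and 4281 antibody 1 peaks overlapped an antibody 2 peak (called shared Sp1 peaks here). The number of reads behind each peak is unknown from these lists, so an absent peak means that none was called and not that the protein was absent. Of the IgG peaks, 1 had its summit in the 367 windows. Among the other windows, 25 lay in 5344 windows and 12 in 36 windows with the satellite repeat described below. The rest lay outside all windows kept. Intervals given below are 95% Wilson intervals. Where a count was 0, the upper limit given instead is 3 counts of the total, which is lower than the Wilson bound. Both cover counting error only, because neighbouring windows are not independent.

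The 367 windows were of 2 kinds. In 99 of them (26.98%), 35.1% to 65.5% of the bases were identical to the base 171 bp further on, the length of an alpha satellite monomer. In the other 268 windows this identity lay between 25.9% and 28.6%, with no window between the groups. Of all distances from 100 to 250 bp, 171 bp was the one at which the most sampled 20 kb stretches of the assembly repeated themselves (268 of 11588). The limit of 33% that divides repeat windows from the rest was set after seeing these values. Over the whole genome, 99 of 135 repeat windows (73.3%) lacked shared CTCF sites, against 268 of 5612 other windows (4.78%). Most results below are therefore given for the 268 windows without the repeat and, separately, for the 99 repeat windows. Gene families, counts by gene, gene lengths and most alternatives cover all 367 windows together.

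**Figure D1:**
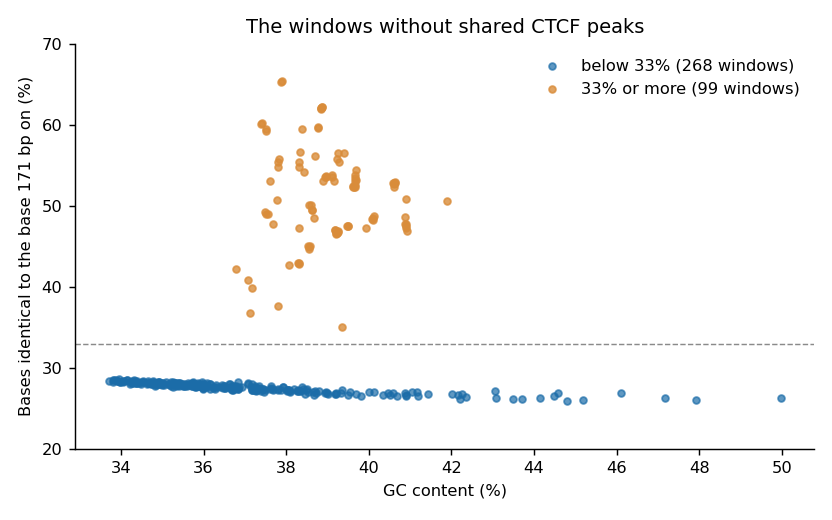
Each point is 1 of the 367 windows without shared CTCF peaks, placed by its GC content (%) and by the percentage of its bases identical to the base 171 bp further on; the dashed line marks 33%. The 99 repeat windows lie between 35.1% and 65.5%, and the 268 others stay at or below 28.6% at every GC content.

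Example sequences from both kinds of window are shown first. Some windows held the CTCF core motif, searched on both strands of the hg38 reference, although no shared peak lay there. The following stretches have the motif in capitals with 15 bases on each side, written along the strand of the motif. Neither motif in introns of DMD, and neither the motif in the zinc finger gene window of chromosome 19 nor that in the UGT2B gene window of chromosome 4, lay under a CTCF peak of either replicate. The first motif in AGBL4 was also free, and the second lay under a peak of replicate 1 only (4.92-fold).
DMD intron, chrX:32673351-32673392, minus strand: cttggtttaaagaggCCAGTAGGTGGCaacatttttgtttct
DMD intron, chrX:32898732-32898773, minus strand: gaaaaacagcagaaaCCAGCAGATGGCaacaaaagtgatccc
AGBL4 intron, chr1:49581994-49582035, plus strand: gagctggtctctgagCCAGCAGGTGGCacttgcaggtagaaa
AGBL4 intron, chr1:49765259-49765300, minus strand: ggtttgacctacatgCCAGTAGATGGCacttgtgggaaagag
Zinc finger gene window, chr19:44035100-44035141, minus strand: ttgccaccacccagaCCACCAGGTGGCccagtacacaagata
UGT2B gene window, chr4:68904877-68904918, plus strand: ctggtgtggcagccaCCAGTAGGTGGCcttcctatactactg

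The second set shows 101 bases of the plus strand centred on antibody 1 summits of shared Sp1 peaks inside the 268 windows, with GC boxes (GGGCGG, or CCGCCC on the other strand) in capitals. They were chosen to show peaks near lncRNA starts, in an intron of a zinc finger gene and far from any start. Not all of them hold a GC box.
Chromosome 6, near ENSG00000287823, chr6:170087590-170087690: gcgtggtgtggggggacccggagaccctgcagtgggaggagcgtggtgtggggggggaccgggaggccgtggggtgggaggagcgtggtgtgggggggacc
Chromosome 6, near ENSG00000287407, chr6:170160428-170160528: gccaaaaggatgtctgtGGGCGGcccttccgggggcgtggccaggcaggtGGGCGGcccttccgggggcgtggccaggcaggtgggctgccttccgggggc
LINC02434, chr4:188159895-188159995: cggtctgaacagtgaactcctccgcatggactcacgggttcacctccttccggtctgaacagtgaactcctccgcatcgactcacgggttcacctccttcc
Chromosome 7, near ENSG00000291021, chr7:56882465-56882565: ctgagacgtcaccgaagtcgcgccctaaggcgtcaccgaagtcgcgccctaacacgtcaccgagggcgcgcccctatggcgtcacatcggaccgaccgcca
ZNF223 intron, chr19:44051909-44052009: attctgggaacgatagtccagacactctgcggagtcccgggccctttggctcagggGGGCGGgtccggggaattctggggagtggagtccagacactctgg
Intergenic, chr4:59518516-59518616: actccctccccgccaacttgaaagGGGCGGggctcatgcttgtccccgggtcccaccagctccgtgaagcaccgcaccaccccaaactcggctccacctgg

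The third set comes from the repeat windows. It gives the most frequent surroundings of a word that differs from the CTCF core motif at 1 position, with the word in capitals, and the bases around 1 shared Sp1 summit on chromosome 13, which held no GC box. The chromosome 18 stretch recurred 1853 times, that of chromosome X 770 times and that of chromosome 15 238 times. The coordinates are those of the first copy.
Chromosome 18, chr18:15801595-15801646, minus strand: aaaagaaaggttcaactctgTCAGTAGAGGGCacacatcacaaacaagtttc
Chromosome X, chrX:59003991-59004042, plus strand: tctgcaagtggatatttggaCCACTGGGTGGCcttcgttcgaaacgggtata
Chromosome 15, chr15:17500860-17500911, minus strand: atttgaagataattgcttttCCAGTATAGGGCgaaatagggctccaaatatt
Chromosome 13 Sp1 summit, chr13:17376928-17377028, plus strand: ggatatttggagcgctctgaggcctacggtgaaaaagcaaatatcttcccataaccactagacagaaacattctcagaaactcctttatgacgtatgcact

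The windows were spread unevenly over the chromosomes. Outside the repeats, 8.95% of the windows of chromosome 13 (17 of 190, interval 5.66 to 13.9%) and 8.78% of chromosome X (26 of 296, 6.06 to 12.6%) lacked shared CTCF sites. Chromosome 3 followed with 7.22% (28 of 388) and chromosome 4 with 6.68% (25 of 374), and the intervals of these neighbours in the order overlapped. At the other end, none of 155 windows of chromosome 17 and none of 68 of chromosome 22 did, which allows shares of up to 1.94% and 4.41%. Chromosome 19, which is rich in genes, had 6.42% (7 of 109), with zinc finger genes in its windows as described below. The number of repeat windows without shared CTCF sites was highest on chromosome 18, with 10 of its 19 such windows, and all 7 of chromosome 17 and all 4 of chromosome 22 were repeats.

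**Figure D2:**
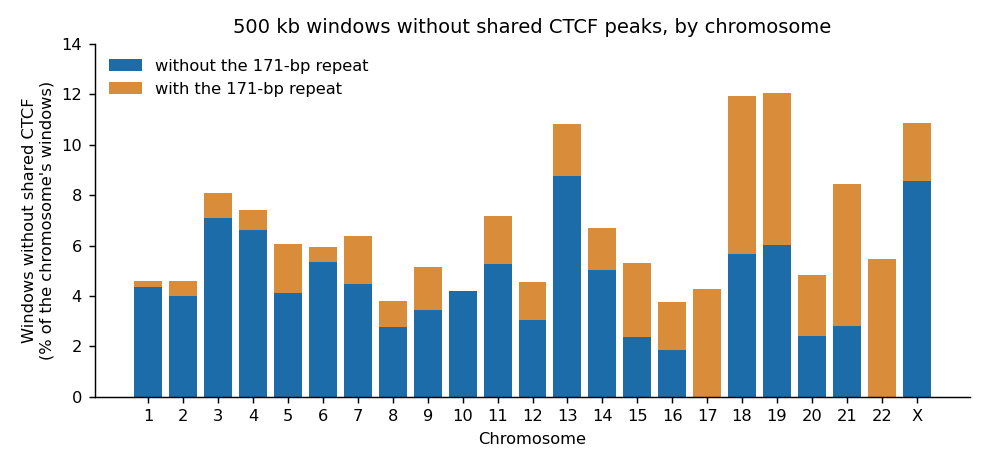
Bars give the percentage of each chromosome's 500 kb windows that held no shared CTCF peak, split into windows with and without the 171-bp repeat. Chromosomes 13 and X have the tallest bars outside the repeats, and chromosomes 17 and 22 have repeat windows only.

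The windows were AT-rich. The 268 windows had a median GC content of 36.3% (quartiles 35.3 and 38.0%), against 36.4% (35.3 and 38.3%) in 483 windows with exactly 1 shared CTCF summit and 40.7% (38.1 and 44.1%) in 4861 windows with more. Windows with no shared summit and with 1 were thus nearly alike in GC content, and both lay well below the rest. When all 5612 windows were divided into deciles by GC content, the share without shared CTCF sites fell from 16.5% (93 of 562, interval 13.7 to 19.8%) in the lowest decile to 0.356% (2 of 562, 0.0976 to 1.29%) in the highest. CpG dinucleotides occurred at 0.178 times the rate predicted from base composition (median), against 0.217 in windows with more than 1 shared summit. The GC box occurred 56 times per Mb (median), against 144 per Mb in windows with more than 1 summit. The order was broken by a few GC-rich windows, led by chr6:170000001-170500000 at 50.0% GC near the end of the long arm of chromosome 6, and by chr1:4000001-4500000 at 47.9%. The lowest GC content, 33.7%, was that of chr3:83000001-83500000, which held no protein-coding start and 1 CTCF core motif.

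**Figure D3:**
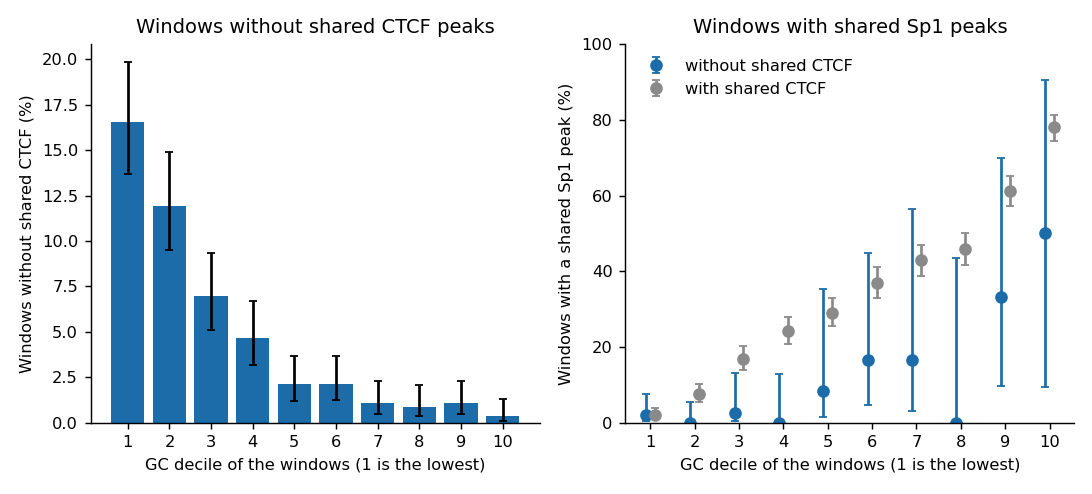
The left plot gives the percentage of windows without shared CTCF peaks in each decile of GC content (1 is the lowest), and the right plot the percentage that held a shared Sp1 peak, for windows without and with shared CTCF peaks; bars are 95% Wilson intervals and repeat windows are left out. The share without CTCF falls from 16.5% to 0.356%, and in the lowest decile the Sp1 shares of both groups are 2.15% and 2.13%.

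Protein-coding genes were scarce in these windows. Of the 268 windows, 80.2% (215, interval 75.04 to 84.6%) held no protein-coding gene start, against 67.5% of windows with 1 shared CTCF summit and 18.4% of those with more. Over all 367 windows the share was 85.0%, and over all 5747 windows it was 27.2%. When the other windows were weighted to the GC deciles of the 268, 52.7% of them held a protein-coding start, against 19.8% of the 268, and of windows with exactly 1 shared summit 31.8%. Starts of long non-coding RNA (lncRNA) genes were found in 73.9% of the 268 windows (198, 68.3 to 78.8%) and in 74.1% of windows with 1 shared summit (358 of 483, 70.03 to 77.8%), so these neighbours could not be told apart, and in 89.4% of windows with more. The windows were also largely outside gene bodies: 156 of 268 (58.2%) had no base in a protein-coding gene, 22 lay wholly inside 1 and 90 lay partly inside. Seen from the gene side, 17.4% of the 898 windows without any protein-coding base lacked shared CTCF sites, against 9.52% of 231 windows wholly inside genes and 2.01% of 4483 windows partly inside.

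The gradient continued over all classes of CTCF density. The share of windows with a protein-coding start was 19.8% at 0 shared summits, 32.5% at 1, 55.0% at 2 to 3, 80.7% at 4 to 6, 94.7% at 7 to 10 and 98.5% above 10. The share with a shared Sp1 peak was 3.73% at 0, 4.76% at 1, 12.8% at 2 to 3, 30.7% at 4 to 6, 48.5% at 7 to 10 and 75.8% above 10. The gene shares at 0 and 1 summits had separate intervals, whereas the Sp1 shares at 0 and 1 did not.

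**Figure D4:**
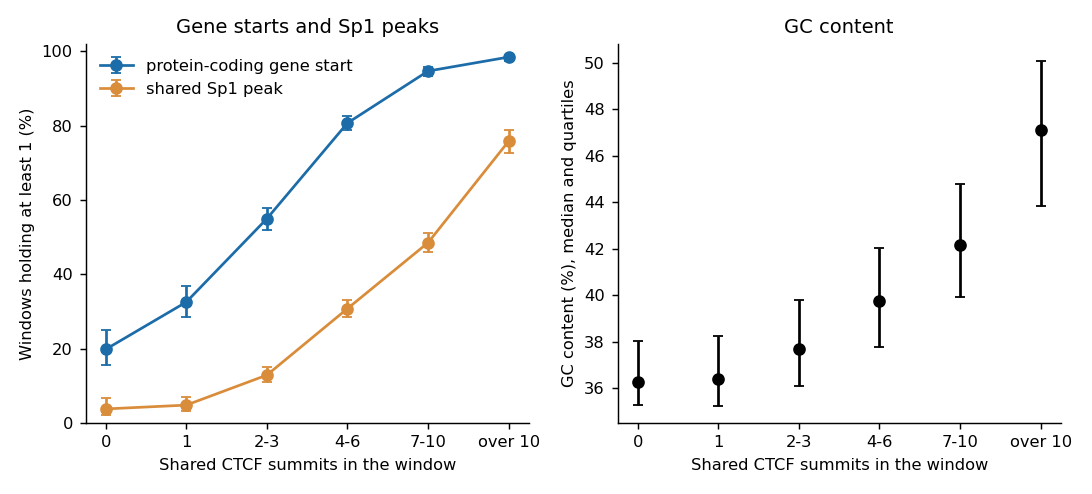
Windows without the repeat are grouped by their number of shared CTCF summits; the left plot gives the percentage with a protein-coding gene start and with a shared Sp1 peak (bars are 95% Wilson intervals), and the right plot the median GC content with quartiles. Gene starts climb from 19.8% to 98.5% and Sp1 peaks from 3.73% to 75.8%, and the lowest 2 classes have nearly the same GC content.

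In all, 128 of 19725 protein-coding genes (0.649%) started in the 367 windows. Gene families were assigned by symbol. Olfactory receptor genes, which encode odorant receptors of the nose, had 21 of 390 members there (5.38%, interval 3.55 to 8.09%). All 21 sat in 1 window, chr11:56000001-56500000, among them OR5AL1, OR5AS1 and OR5J2. That window had 22 protein-coding starts, the highest number of the 367, a GC content of 35.5%, no Sp1 peak with either antibody and 2 CTCF peaks of replicate 1 only. ZNF genes, which encode zinc finger proteins that are mostly putative DNA-binding regulators, had 39 of 506 (7.71%, 5.69 to 10.4%) in 12 windows, such as ZNF100, ZNF112 and ZNF208. Genes for UDP-glucuronosyltransferases, enzymes that conjugate steroids and drugs, had 4 of 22 (18.2%, 7.31 to 38.5%), all in chr4:68500001-69000000: UGT2B17, UGT2B15, UGT2B10 and UGT2A3. The window chrX:141500001-142000000 held 5 starts of genes known mainly from testis and tumours, SPANXA1, SPANXA2, SPANXD, MAGEC3 and MAGEC1, and no peak of CTCF or Sp1 in any list.

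Genes of at least 500 kb formed a further group, with 11 of 320 starting in the windows (3.44%, interval 1.93 to 6.05%). They were 8.59% of the 128 genes there and 1.58% of 19597 genes in all other windows. In windows with exactly 1 shared CTCF summit the share was higher still, at 13.5% (35 of 259), so long genes were not particular to the windows without. Among the longest were DMD, which encodes the muscle protein dystrophin (2242 kb), and DPP10, which encodes an auxiliary subunit of potassium channels (1403 kb). A few members came from other families: GABRA3 of 19 GABA receptor genes, KCNMB4 of 96 potassium channel genes, SEMA3A of 20 semaphorin genes, RPSA2 of 86 genes named as cytosolic ribosomal proteins, and TRIM51G, TRIML1 and TRIML2 of 78 TRIM genes (3.85%, interval 1.32 to 10.7%). Among the lists without any member, solute carriers had 0 of 371, which allows a share of up to 0.809%, above the 0.649% of all genes. Keratin-associated proteins (0 of 94), histones (0 of 92), mitochondrial ribosomal proteins (0 of 77), protocadherins (0 of 65), cytochromes P450 (0 of 56), the proteasome (0 of 48) and HOX genes (0 of 39) were also without one, and their limits, between 3.19% and 7.69%, lay above it as well. Families whose genes lie side by side share windows, so their members were not independent of each other.

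The windows lay mostly alone. The 268 windows formed 229 runs, of which 195 were single windows, 30 were pairs, 3 had 3 windows and 1 had 4. The run of 4, chrX:32000001-34000000, covered the 5′ part of DMD (chrX:31097677-33339609, minus strand) and the sequence before it. It held no CTCF peak of either replicate and no Sp1 peak with either antibody, at a GC content of 35.3 to 36.3%, and it held both DMD motifs shown above. The nearest shared CTCF summits lay 341 kb before the run and 301 kb after it, which made the 2642 kb between them the longest distance between neighbouring shared summits that crossed neither a repeat window nor a window with unknown bases; the median distance over 33913 pairs was 41.9 kb. The runs of 3 were chr3:95000001-96500000, chr11:97500001-99000000 and chr14:83500001-85000000. None of them held a protein-coding start, a base of a protein-coding gene, a CTCF peak of either replicate or an Sp1 peak of either antibody.

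Other very long genes held windows of this kind inside their bodies. Of 131 windows wholly within a protein-coding gene of at least 1 Mb, 16 (12.2%, interval 7.66 to 18.9%) lacked shared CTCF sites. DMD and AGBL4, a gene for a carboxypeptidase that trims glutamate chains, each held 2. CNTNAP2 (a neuronal adhesion protein), MACROD2 (an ADP-ribose hydrolase), LRP1B (a lipoprotein receptor relative), DAB1 (an adaptor of reelin signalling), GRIK2 (a glutamate receptor subunit) and FHIT (a hydrolase gene at a fragile site) were among those that held 1 each. These genes were not free of CTCF: 12 shared summits lay in MACROD2, 8 in AGBL4 and 2 in DMD. MGAT4C and LUZP2 held none over 883 kb and 586 kb.

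**Figure D5:**
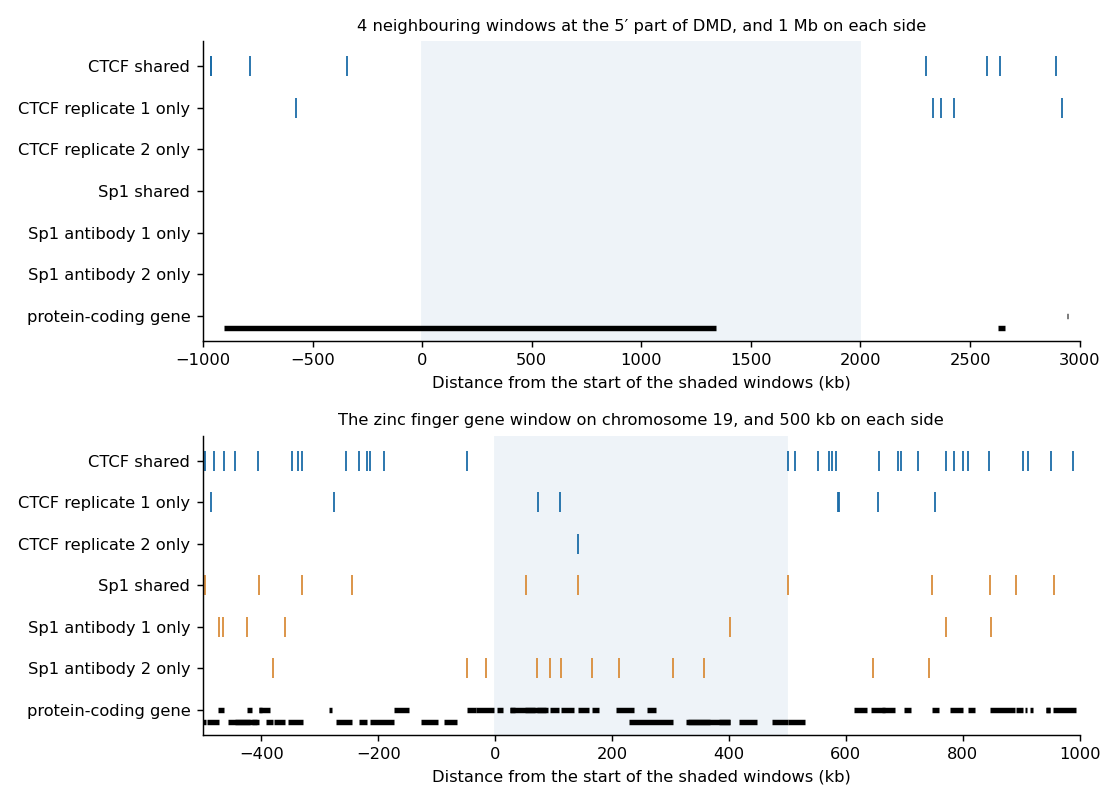
The upper map shows the run of 4 windows at DMD and the lower map the zinc finger gene window of chromosome 19 (both shaded), with distance from the start of the shaded windows in kb; ticks mark summits of each peak list and black bars protein-coding genes (plus strand above minus strand). The DMD run is empty in all lists, whereas the zinc finger window holds 10 Sp1 summits, of which 7 are of antibody 2 only.

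Shared Sp1 peaks were rare in the windows. They occurred in 14 of 367 windows (3.81%, interval 2.29 to 6.30%) and in 10 of the 268 windows without the repeat (3.73%, 2.04 to 6.73%), against 33.4% of all windows and 38.6% of windows with more than 1 shared CTCF summit (1874 of 4861). GC content differed between these groups. When the other windows were weighted to the GC deciles of the 268, 14.1% of them held a shared Sp1 peak, and of windows with exactly 1 shared summit 4.78%. In the 3 lowest GC deciles, the shares were 1.51% (3 of 199, 0.514 to 4.34%) without and 9.09% (135 of 1485, 7.73 to 10.7%) with shared CTCF sites. These pooled groups were not matched in GC content. From the lowest decile up, 2 of 93, 0 of 67 and 1 of 39 windows without shared sites held one. With shared sites the shares were 2.13% (10 of 469), 7.49% (37 of 494) and 16.9% (88 of 522). With exactly 1 shared summit they were 1 of 168, 6 of 111 and 4 of 66, and in each decile their interval overlapped that of windows without. The number of genes also differed. Among windows without a protein-coding start, Sp1 shares were 1.86% (4 of 215, 0.726 to 4.69%) without shared CTCF sites and 2.46% (22 of 894, 1.63 to 3.70%) with more than 1 shared summit, which is within counting error. Among windows with 2 or more starts they were 18.2% (4 of 22, 7.31 to 38.5%) and 56.3% (1748 of 3106, 54.5 to 58.0%), and with exactly 1 shared summit 21.2% (7 of 33, 10.7 to 37.8%), whose interval overlapped that of windows without. The parts of GC content and gene number in the Sp1 difference were not tested further.

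The 268 windows held 12 shared Sp1 peaks, 10 of them within 1 kb of an annotated transcript start. The peak at the starts of FAM227B and DTWD1, a divergent pair on chromosome 15 of which DTWD1 encodes a tRNA-modifying enzyme, was 10.6-fold enriched with antibody 1 and 59.0-fold with antibody 2, the highest antibody 2 value of the 12. At KAT6B, which encodes a histone acetyltransferase, the values were 19.4-fold and 11.2-fold, and the 101 bases at the summit held 6 GC boxes. The window chr6:170000001-170500000, which holds DLL1 (a Notch ligand) and FAM120B, had 2 peaks near lncRNA starts, at 20.5-fold and 8.78-fold and at 19.8-fold and 7.99-fold. LINC02434 on chromosome 4 had 6.89-fold and 18.2-fold. ZNF223 had 7.25-fold and 9.97-fold, and ZNF234 4.68-fold and 6.17-fold. Some summits lay on short tandem repeats, other than the 171-bp one. Within the 101 bases, identity at the best-matching shift was 98.04% at 50 bp for LINC02434. For the 2 chromosome 6 peaks it was 81.4% at 42 bp and 76.5% at 33 bp. Near ENSG00000291021 on chromosome 7 it was 66.2% at 24 bp, and the next highest of the 12 was 53.75% (KAT6B). How reads were placed on these short repeats was not tested. The median fold enrichment of the 12 peaks was 7.104 with antibody 1 (quartiles 6.51 and 13.01) and 9.39 with antibody 2 (7.54 and 16.8), against 10.5 (7.11 and 15.9) and 6.80 (5.20 and 9.70) for 4052 shared Sp1 peaks in windows with shared CTCF sites, so the quartile ranges overlapped for both antibodies. A GC box lay within the 101 bases at the summit of 5 of 12 peaks (41.7%, interval 19.3 to 68.0%) and of 2370 of the 4052 (58.5%, 57.0 to 59.998%), against 1.49% of consecutive stretches of that length in all windows.

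Counted by gene, 4 of the 128 protein-coding genes that started in the windows (3.13%, interval 1.22 to 7.76%) had a shared Sp1 summit within 1 kb of the 5′ end of the annotated gene: FAM227B, DTWD1, ZNF223 and ZNF234. The shared peak at KAT6B lay 37 bp from another transcript start of that gene, so KAT6B was not counted. Over all 19725 genes the share was 18%, and in windows with exactly 1 shared CTCF summit it was 6.18% (16 of 259, 3.84 to 9.80%). For ZNF genes, 2 of 39 in the windows (5.13%, 1.42 to 16.9%) and 132 of 467 elsewhere (28.3%, 24.4 to 32.5%) had one. For olfactory receptor genes the count was 0 of 21 in the windows, which allows up to 14.3%, and 0 of 369 elsewhere, which allows up to 0.813%. The intervals were separate for ZNF genes with shared summits, whereas no difference was detectable for olfactory receptor genes at these numbers. With any antibody 1 peak, the ZNF intervals were also separate (4 of 39, 4.06 to 23.6%, against 213 of 467, 41.1 to 50.1%). With any antibody 2 peak they overlapped (6 of 39, 7.25 to 29.7%, against 154 of 467, 28.9 to 37.4%). Antibody 2 peaks at other transcript starts of ZNF225, ZNF227 and ZNF112 were not counted. The 39 ZNF genes lay in 12 windows and were not independent.

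Peaks of 1 Sp1 antibody only gave a different set of places. The 268 windows held 19 peaks of antibody 1 only and 17 of antibody 2 only (0.0709 and 0.0634 per window). The 5344 other windows without the repeat held 4208 and 1492 (0.787 and 0.279 per window). In the 99 repeat windows there were 18 and 40 (0.182 and 0.404 per window). In the 268 windows, antibody 1 alone marked the starts of NBEA (6.89-fold), ELAVL2 (8.85-fold), LMBR1 (9.26-fold) and FGGY (5.28-fold). Its highest value there, 59.2-fold, lay in an intron of a lncRNA gene at chr4:28466759-28467474. At METTL15, which encodes a methyltransferase of mitochondrial ribosomal RNA, the antibodies marked separate places: antibody 1 had a 15.5-fold peak at chr11:28108089-28108616 and antibody 2 a 101-fold peak at chr11:28109865-28110673. In the zinc finger gene window chr19:44000001-44500000, with 16 protein-coding starts, antibody 2 had 9 peaks and antibody 1 had 3. Of these, 2 were shared, at ZNF223 and ZNF234. The 7 peaks of antibody 2 only included those at ZNF225 (8.79-fold), ZNF284 (8.23-fold), ZNF224 (6.89-fold), ZNF227 (6.79-fold), ZNF112 (5.54-fold) and ZNF235 (3.81-fold), and the peak of antibody 1 only was at ZNF285 (4.86-fold). The next shared CTCF summit lay 0.518 kb beyond the end of this window, so its place among the 367 rests on where the fixed grid fell. With 1 library per antibody, differences between the antibodies had no replicate check.

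CTCF peaks of a single replicate were not excluded by the choice of windows. The 268 windows held 170 peaks of replicate 1 only, in 116 windows, with a median enrichment of 6.17-fold (quartiles 4.92 and 7.81), and 13 peaks of replicate 2 only, with a median of 4.54-fold. These were 0.634 and 0.0485 per window. The 5344 other windows without the repeat had more, at 1.53 (8175 peaks, median 5.76-fold) and 0.154 per window (822 peaks, median 3.53-fold). The strongest in the 268 windows, 24.3-fold in replicate 1, lay 49 bp from the start of NOM1 at chr7:156949581-156949837. No CTCF peak of either replicate lay in 148 of the 268 windows (55.2%), and no CTCF or Sp1 peak of any list in 135 (50.4%). Just inside the limit stood the 81 windows with exactly 1 peak of replicate 1 only, and just outside it the 497 windows with exactly 1 shared summit, whose lone peaks had median enrichments of 26.3-fold in replicate 1 and 14.4-fold in replicate 2. Shared peaks in windows with more than 1 had 42.4-fold and 21.97-fold. At the limit of unknown bases, 12 of the 367 windows had 5 to 10% unknown bases, and 17 of the 51 windows set aside with 10 to 20% also lacked a shared summit.

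The CTCF core motif was present in some of the windows. It occurred in 99 of the 268 (36.9%, interval 31.4 to 42.9%), against 51.1% of windows with 1 shared summit, 81.9% of those with more and 75.6% of all windows. Weighted to the GC deciles of the 268, 66.4% of the other windows held one. The 268 windows held 150 motifs, or 1.12 per Mb, and 16 of them lay under a CTCF peak of 1 replicate. In windows with 1 shared summit, 96 of 344 motifs (27.9%) lay under a shared peak, and in windows with more, 6473 of 10273 (63.0%). Motifs without a shared peak were therefore about as dense in the windows without shared CTCF sites (1.12 per Mb) as in those with 1 shared summit (1.03 per Mb), and less dense than in those with more (1.56 per Mb).

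The 99 repeat windows had other properties. Their median GC content was 39.0% (quartiles 38.3 and 39.7%), 2 of them held a protein-coding start, and the median number of GC boxes per Mb was 0. CpG occurred at 0.418 times the rate predicted from base composition, above the 0.178 of the 268 windows. None of the 99 held the CTCF core motif, which allows a share of up to 3.03%. Words that differ from the motif at 1 position were frequent in the arrays of a few chromosomes, at 218 per window on chromosome 18 (2180 in 10 windows), 326 on chromosome 20, 149 on chromosome 15 and 132 on chromosome X, whereas those of other chromosomes, such as 3, 4, 9, 12 and 16, held none. On chromosome 18 a single word, TCAGTAGAGGGC, made up 2102 of the 2180. The 10 windows of chromosome 18, chr18:15500001-20500000, formed the longest run of all windows without shared CTCF sites.

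In the repeat windows, CTCF peaks of a single replicate came mainly from replicate 2, the reverse of the other windows. The 99 windows held 9 peaks of replicate 1 only and 244 of replicate 2 only, or 2.46 of the latter per window against 0.0485 in the 268 windows. Their median enrichment was 2.76-fold (quartiles 2.38 and 3.27). The peaks were unevenly divided: 53 lay in the 4 windows of chromosome 13, 36 in the 10 of chromosome 18 and none in the 7 of chromosome 5 or the 7 of chromosome 19. Repeat windows that did hold shared CTCF sites had more such peaks. Those 36 windows held 245 peaks of replicate 2 only (6.81 per window) and 38 of replicate 1 only. The 5 shared Sp1 peaks of the 99 repeat windows were weak, at 1.77-fold to 3.48-fold with antibody 1 and 1.96-fold to 3.43-fold with antibody 2, all below the lowest value of the 12 shared Sp1 peaks of the 268 windows (4.36-fold and 4.45-fold). None of the 5 lay within 1 kb of a start or held a GC box at its summit.

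Arrays with nearly the same sequence differed in their peaks. Sequences were compared by their distinct stretches of 50 bases on either strand. At least 99% of these stretches also occurred in the arrays of chromosome 13 in 3 windows of chromosome 21 (chr21:11000001-12500000), 3 of chromosome 22 (chr22:13500001-15000000) and 3 of chromosome 14 (chr14:16500001-18000000). The 4 windows of chromosome 13 (chr13:16000001-18000000) had 53 CTCF peaks of replicate 2 only, 5 Sp1 peaks with antibody 1 and 13 with antibody 2, whereas the windows named on chromosomes 14, 21 and 22 had no peak of CTCF or Sp1 in any list. A second set lay on chromosomes 1, 5 and 19. At least 99% of the stretches occurred in the arrays of chromosome 1 in 4 windows of chromosome 5 (chr5:47500001-49500000) and 4 of chromosome 19 (chr19:25000001-27000000), and none of these windows held a peak of CTCF or Sp1. The 5 windows chr1:122500001-125000000 had 44 shared CTCF summits and 150 peaks of replicate 2 only. Of these, the 3 windows chr1:123000001-124500000, with at least 99% of their stretches on chromosome 5, had 27 and 91. The next window of chromosome 5, chr5:49500001-50000000, had 91.1% of its stretches on chromosome 19 and 25.0% on chromosome 1. It was not empty, with 4 shared CTCF summits, 8 peaks of replicate 2 only, and 5 and 6 Sp1 peaks with antibodies 1 and 2. Of the 99 repeat windows, 25 (25.3%) had at least 50% of their stretches on 1 other chromosome. Others had few distinct stretches in their 500 kb, such as 31985 at chr15:17500001-18000000 and 59426 at chr18:16000001-16500000. Some had many, such as 452097 at chr6:61000001-61500000. How reads were placed among copies on other chromosomes or within an array was not tested. For the 99 repeat windows, the absence of a CTCF peak therefore cannot be told apart from placement of its reads elsewhere.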

How the data were processed

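ChIP-seq peaks of CTCF (2 replicates), Sp1 (2 antibodies, 1 library each) and IgG in U-2 OS were analysed. According to the study's methods, paired-end reads were trimmed, aligned to hg38, freed of duplicates and used for peak calling per library. The submitters' processing notes name cutadapt 2.6, Bowtie2 2.4.5, SAMtools 1.15.1 and MACS2 2.2.7.1. The methods describe calling at a permissive p-value threshold without local background and against merged controls, ahead of a reproducibility analysis. In each list used here, no peak had a −log10 q-value below 1.30, and whether those options made these lists is not given in the sources used here. The deposited lists hold fold enrichment (a ratio to the control), −log10 p-values and q-values, a score, and the position and summit of each peak. Fold enrichment was used as the authors' peak caller gave it, and the deposited score was not used.

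Windows, base composition and motifs were computed from the hg38 sequence, and gene starts, exons and gene bodies from GENCODE release 44, with Python 3.11.15, numpy 2.4.6, pandas 2.3.3, scipy 1.17.1 and pysam 0.24.0. Repeat windows have at least 33% identity at a distance of 171 bp. Expected CpG was taken from the C and G content. A gene start is the 5′ end of the annotated gene, and the counts by gene use only that position. Distances from single peaks to the nearest start use all transcript starts. Differences are given without a test, since windows are not replicates, and the main ones with Wilson intervals or quartiles. The counting of windows was tested on simulated peaks.

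The windows and gene lists were chosen with earlier results of these data known. Named are windows with the longest runs, most protein-coding starts, strongest and most shared Sp1 peaks, and highest and lowest GC content, the 3 longest genes that start there, and up to 3 genes per family in order of symbol. Some genes that these rules name are not reported here. Genes that hold windows inside them, those with peaks of 1 antibody or 1 replicate only, and the arrays compared across chromosomes were chosen after their values were seen. Input libraries were not analysed here. Alternatives are given in the closing section.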

Additional observations from a re-analysis of the deposited data

How the results depend on the processing

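No paired analysis was possible because CTCF and Sp1 came from different lines, Sp1 and IgG have 1 library each, and no peak list of an input was used here. Of 80 values under alternatives, 54 stayed within the error of the main value (or within 1.5 times it for the number of windows). Without either CTCF replicate in turn, the number of windows was 244 to 302, the median GC content 36.8% to 37.5%, the share without a protein-coding start 83.8% to 89.8% and the share with a CTCF core motif 20.5% to 31.1%, against 367, 37.3%, 85.0% and 26.98%. Counting a peak of either replicate left 194 windows, 2.06% of them with a shared Sp1 peak. Windows of 250 kb gave 1962 windows, with a core motif in 19.8% and a shared Sp1 peak in 25.5% of the other windows. Windows of 1 Mb gave 63 windows, a median GC content of 38.6%, no protein-coding start in 92.1%, a core motif in 14.3% and a shared Sp1 peak in 49.6% of the others. With no unknown base allowed, the median GC content was 36.8% and the core motif share 31.8%. Any antibody 1 peak was found in 11.4% of the windows and 52.0% of the others, any antibody 2 peak in 10.9% and 46.0%, and with 50% reciprocal overlap of the antibodies the others had 32.5%, against 3.81% and 35.5%. Of the 268 windows without the repeat, 8.58% held an antibody 1 peak and 6.72% an antibody 2 peak. Counting lncRNA starts as well left 42.5% of windows without a start, and allowing 1 mismatch put a core motif in 89.1%. Without the repeat windows, an alternative chosen after seeing the data, the median GC content was 36.3%, the share without a protein-coding start 80.2% and the core motif share 36.9%. The reciprocal overlap of CTCF replicates, a −log10 q of at least 3, the replicate 2 summit, the shifted grid and autosomes alone moved none of the 6 results. Under the shifted grid, 252 of the 367 windows (68.7%) overlapped a window without a shared summit, so individual windows depended on where the grid fell.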

Other observations

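Windows without shared CTCF sites lay in wider stretches of low CTCF density. The 429 windows beside one of the 268 held a median of 3 shared summits (quartiles 1 and 5), against 6 (3 and 9) in 4915 windows beside none. Distances between neighbouring shared summits reached 500 kb in 606 cases and 1 Mb in 95. A distance of 500 kb need not span a whole window of the grid, whereas one of 1 Mb does. Of the 95, 66 crossed neither assembly gaps nor repeat windows. Among the longest were 1952 kb on chromosome 14, 1844 kb around GRIA3 (a glutamate receptor gene) on chromosome X, 1590 kb around ZEB2 (a transcription factor gene) on chromosome 2, 1549 kb around PCDH17 on chromosome 13 and 1536 kb around MEF2C on chromosome 5.

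Pseudogene starts were found in 69.8% of the 268 windows (187, interval 64.0 to 74.96%), in 68.5% of windows with 1 shared summit and in 80.3% of those with more. The 128 genes that start in the 367 windows had a median length of 30.5 kb (quartiles 7.16 and 119.9 kb), against 27.8 kb (9.85 and 72.2 kb) for 19597 genes elsewhere and 50.4 kb (4.08 and 239 kb) for 259 genes in windows with 1 shared summit. With olfactory receptor and ZNF genes left out of every group, the medians were 96.6 kb (15.2 and 262 kb) for 68 genes, 28.8 kb (10.2 and 75.2 kb) for 18760 and 73.5 kb (5.67 and 284 kb) for 221, and the quartile ranges overlapped.

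The 36 repeat windows that did hold shared CTCF sites were led by chromosome 1, with 45 shared summits in 6 windows, chromosome 20, with 21 in 4, and chromosome 9, with 20 in 3.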
